A study of Mus musculus with 20 samples.

Results

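The NK-like cells of the mouse spinal cord were examined in single-cell RNA sequencing data from cords with and without a contusion injury, in mice with and without microglia. They were taken from cluster 5, the lymphocyte cluster of the deposited cell annotation. The cells chosen had 0 unique molecular identifiers (UMIs) over Cd3d, Cd3e and Cd3g, the CD3 chains of the T cell receptor complex. They also had at least 1 UMI over the receptors Klre1, Ncr1 and Klrb1c. This gave 131 cells among 764 cells of the cluster and 21016 cells in all, or 0.623%. Another 521 cells of the cluster held Cd3 UMIs and none of the 3 receptors (Cd3 T cells), 55 held both and 57 held neither.

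All mice were C57BL/6J females of 8 to 10 weeks, fed either vehicle chow or chow with PLX5622 at 1200 ppm from 2 weeks before surgery to the end point. PLX5622 is an inhibitor of CSF1R, a receptor on which microglia depend for survival. Surgery was a contusion of the spinal cord (SCI) at thoracic level 9 or a laminectomy alone (sham), and cords were taken at 7 or 28 days post-injury (dpi). The 6 libraries were therefore sham, 7 dpi and 28 dpi on each diet, each made from several pooled mice, and the label of each sham library names both end points. With 1 library per condition there is no replicate check of any difference between conditions, and all intervals below cover counting error only. The cords were not perfused, so cells in the blood and cells in the tissue cannot be told apart.

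Natural killer (NK) cells are innate lymphocytes that kill infected, transformed or stressed cells by releasing granzymes and perforin from granules. Inhibitory receptors that recognise MHC class I molecules restrain them and activating receptors trigger them, and they secrete chemokines and interferon gamma. They lack the T cell receptor complex, and in the healthy spinal cord they are rare.

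The promoters of the 3 receptor genes that chose the cells, and of the label's markers Gzma and Nkg7, are shown because these genes define the cells. Each line gives the 250 bases before the gene's first base in RefSeq on GRCm38.p6, read on the gene's strand, and capitals mark the letters TGTGGT (the core bound by RUNX factors) or AGGTGT (the core bound by T-box factors) on either strand.
Klre1 (chr6:129577963-129578212, + strand): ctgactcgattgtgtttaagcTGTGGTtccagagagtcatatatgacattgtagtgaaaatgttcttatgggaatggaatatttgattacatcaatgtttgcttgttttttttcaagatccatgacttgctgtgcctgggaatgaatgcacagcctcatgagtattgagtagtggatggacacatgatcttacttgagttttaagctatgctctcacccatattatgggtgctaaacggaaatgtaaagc
Ncr1 (chr7:4337465-4337714, + strand): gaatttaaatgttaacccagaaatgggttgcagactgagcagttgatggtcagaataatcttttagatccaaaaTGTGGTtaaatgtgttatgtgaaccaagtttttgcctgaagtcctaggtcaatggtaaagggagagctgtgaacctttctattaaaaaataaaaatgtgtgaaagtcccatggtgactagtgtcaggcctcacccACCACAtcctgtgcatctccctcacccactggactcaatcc
Klrb1c (chr6:128788642-128788891, - strand): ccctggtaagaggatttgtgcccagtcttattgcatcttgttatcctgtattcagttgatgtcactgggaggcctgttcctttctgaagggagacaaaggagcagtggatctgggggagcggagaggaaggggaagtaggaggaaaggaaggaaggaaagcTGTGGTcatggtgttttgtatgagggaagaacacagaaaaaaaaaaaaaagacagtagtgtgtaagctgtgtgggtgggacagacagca
Gzma (chr13:113100982-113101231, - strand): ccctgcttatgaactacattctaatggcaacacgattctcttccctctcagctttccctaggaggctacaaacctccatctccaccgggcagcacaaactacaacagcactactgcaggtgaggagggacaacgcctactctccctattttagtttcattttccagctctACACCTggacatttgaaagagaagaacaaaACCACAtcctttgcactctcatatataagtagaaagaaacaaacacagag
Nkg7 (chr7:43436888-43437137, + strand): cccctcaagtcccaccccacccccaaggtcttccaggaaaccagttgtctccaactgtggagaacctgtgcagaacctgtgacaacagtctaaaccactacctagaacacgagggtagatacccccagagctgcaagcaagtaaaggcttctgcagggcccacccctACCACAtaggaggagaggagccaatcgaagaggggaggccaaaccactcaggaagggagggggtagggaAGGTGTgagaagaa
Klre1 and Ncr1 have 2 entries each in the sequence table and the first listed is shown. With Xcl1, Gzmb and Prf1 added, TGTGGT or its reverse complement lay in 8 of 8 of these promoters, against 14% of 32851 promoters of the same length. AGGTGT lay in 3 of 8, against 11.8%. The STAT letters TTCNNNGAA lay in 1 of 8, against 7.02%, and the ETS letters GGAAGT in 3 of 8, against 19.7%. The letters were chosen after matches had been seen, and a match is a description of the sequence, not of binding.

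The 131 cells carried 1 to 24 UMIs over the 3 receptors, with a median of 4. Klre1, an activating or inhibitory lectin-like receptor depending on its partner, was detected in 104 cells, Ncr1 (NKp46), an activating receptor of NK cells, in 81, and Klrb1c (NK1.1) in 93. At the edge of the rule, 21 cells had a single such UMI. Of these 21 cells, 11 held Gzma and 0 held Prf1, Cd4, Cd8b1 or Il7r UMIs. Their summed Apoe was 65643 CPM (UMIs scaled to the same total in every sum of cells), with UMIs in 20 of the 21, against 11182 CPM in the other 110 cells, and their Gzma 1922 against 7798 CPM. Of the 21 cells, 19 lay in the injured vehicle libraries, against 51 of the 110. Of the 2766 Apoe UMIs of the 21 cells, 2683 lay in 6 cells. These 6 had 2% or more of their UMIs in the microglia and macrophage list described below, as did 9 of the 110. Without such cells Apoe stood at 4630 CPM in the 15 left, against 1114 CPM in the 101 left. Gzma stood at 3012 against 8786 CPM. The Apoe sum thus rested largely on few cells, but both differences remained without them. The part of the make-up of libraries was not tested. Just outside the rule, 9 cells had the receptors and a single Cd3 UMI, and 3 of those held Gzma. None of the 131 cells held a UMI of Cd4, Cd8a, Cd8b1, Cd5, Cd6 or Themis, whereas 356 of the 521 Cd3 T cells did. T cell transcripts were not absent, however: over the 8 genes of the T cell list the 131 cells held 23 UMIs in 17 cells, 16 of Cd28 (a costimulatory receptor) in 14 cells and 7 of Bcl11b (a factor that specifies the T lineage) in 4. A rule that also asked for 0 UMIs of Cd4, Cd8a, Cd8b1, Cd5, Cd6 and Cd28, chosen after seeing the data, would keep 117 of the 131 cells. Of 10 NK markers that the rule did not use, the cells held UMIs of a median of 7, and 130 of 131 held UMIs of 3 or more. Among Cd3 T cells the median was 2, and 176 of 521 (33.8%) held UMIs of 3 or more, so that count alone does not separate the groups. Outside cluster 5, 97 cells met the same gene rule, and 9 of them held a Gzma UMI, with Apoe at 66000 CPM. The label rests on the set of markers together, with the limits that a minority of cells carry T cell list transcripts and that the cells were clustered on genes that include the markers.

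Markers of other cell types were few with 1 exception. Over 4 B cell genes the 131 cells held 2 UMIs, over 4 erythroid genes 7, over 5 neutrophil genes 62 and over 10 neural and vascular genes 48. Over 12 microglia and macrophage genes they held 7604 UMIs, of which 4272 lay in the 7 dpi vehicle library and 3215 in the 28 dpi vehicle library. Apoe, a lipid carrier that activated microglia and macrophages make in large amounts, stood at 210.4 CPM in sham vehicle, 54110 in 7 dpi vehicle, 37885 in 28 dpi vehicle, 172.8 in sham PLX5622, 389.4 in 7 dpi PLX5622 and 666.3 in 28 dpi PLX5622. The injured vehicle libraries thus stood far above the others. Few cells carried most of it. At 7 dpi a single cell held 39.0% of the Apoe UMIs, and 5 of 32 cells, those with 2% or more of their UMIs in the microglia and macrophage list, held 96.2%. At 28 dpi 10 of 38 cells passed the same mark and held 94.0% of the Apoe UMIs, and 0 cells passed it in the other 4 libraries. These 15 cells held 52.1% of all NK-like UMIs at 7 dpi and 46.9% at 28 dpi on vehicle, and the doublet caller Scrublet called 9 of them. All 11 NK-like cells that it called lay in these 2 libraries, 4 at 7 dpi and 7 at 28 dpi. The number of cells called was set beforehand from the size of each library. It was 443 at 7 dpi and 776 at 28 dpi on vehicle, against 26 in sham vehicle and 2, 2 and 7 on PLX5622. Few calls were thus possible outside these 2 libraries, so where the calls lay follows in part from that setting. In the remaining 27 and 28 cells the list took 0.657% and 0.749% of UMIs, against 0.0384% in sham vehicle, and Apoe stood at 4335 and 4270 CPM, so a lower level of the same transcripts was left. The median cell of all held 4.56 Apoe UMIs per 1000 UMIs at 7 dpi and 6.01 at 28 dpi, against 0 in sham vehicle. Cd3 T cells carried the same signal, with 47144 CPM of Apoe at 7 dpi and 40474 CPM at 28 dpi on vehicle. A set of 990 myeloid-high genes was formed that microglia and macrophages hold at 5 times the level of Cd3 T cells or more. The T cells were those of the 4 libraries other than injured vehicle. The set includes Tyrobp, Fcer1g and Ccl4, which NK-like cells also held in sham vehicle. In NK-like cells the set took 17.0% of UMIs at 7 dpi and 15.3% at 28 dpi on vehicle, and 2.46% to 2.69% in the other 4 libraries. Without the 15 cells that share was 4.84% and 5.21%. The mark of 2% was chosen after seeing the data. Sums weight cells by their UMIs, and many differences between libraries moved without these 15 cells, so the main ones are given both ways below.

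**Figure D1:**
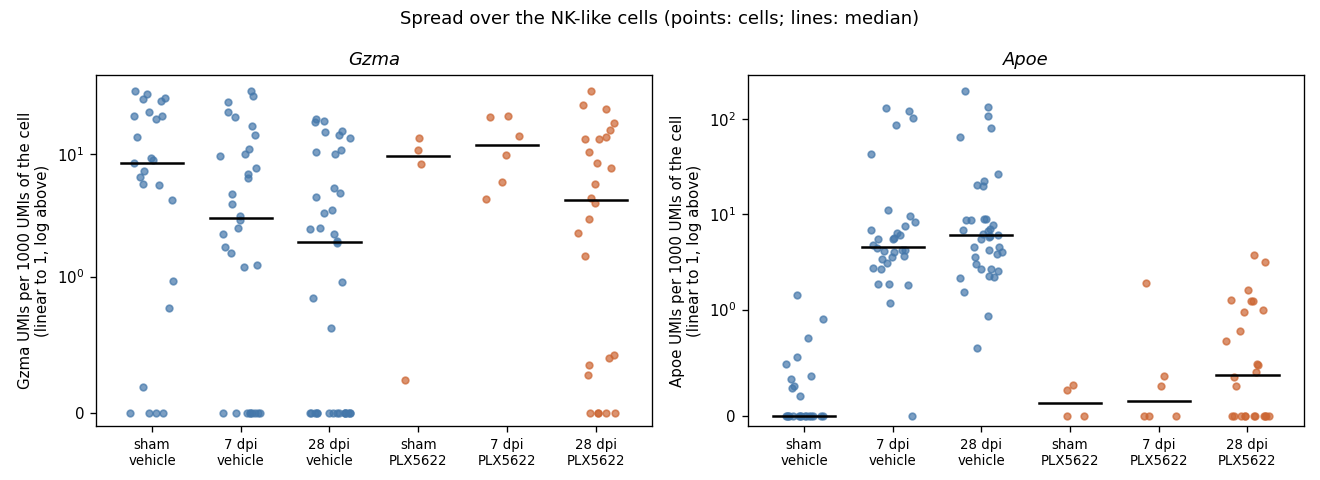
Gzma (left) and Apoe (right) UMIs per 1000 UMIs of the cell in each of the 131 NK-like cells by library, on an axis that is linear to 1 and logarithmic above; points are cells, black lines medians, blue vehicle and orange PLX5622. Gzma medians were 8.52, 3.02, 1.90, 9.58, 12.0 and 4.22 from left to right, and Apoe medians were 4.56 and 6.01 in the injured vehicle libraries and 0 to 0.386 in the others.

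How common the NK-like cells were depended on the library and on the denominator. In vehicle-fed mice they made up 1.39% of all cells in the sham library (25 of 1795 cells, exact 95% binomial interval 0.903 to 2.05%), 0.430% at 7 dpi (32 of 7439, 0.294 to 0.607%) and 0.386% at 28 dpi (38 of 9846, 0.273 to 0.529%). The sham interval lay above both injured intervals. On PLX5622 they made up 0.813% in the sham library (4 of 492, 0.222 to 2.07%), 1.19% at 7 dpi (6 of 504, 0.438 to 2.57%) and 2.77% at 28 dpi (26 of 940, 1.82 to 4.03%). The intervals of the sham and 7 dpi libraries on PLX5622 overlapped each other and that of sham vehicle, while at 28 dpi the share was 2.77% on PLX5622 against 0.386% on vehicle, with intervals far apart. A share of all cells moves with every other cell type, including microglia, which the diet depletes.

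Among cells outside the microglia and macrophage clusters, the NK-like share was 2.67% in sham vehicle, 1.42% at 7 dpi and 1.49% at 28 dpi on vehicle (intervals 1.74 to 3.92%, 0.970 to 1.99% and 1.05 to 2.03%, of which the sham interval overlaps both others), and 0.881%, 1.75% and 3.98% in the same order on PLX5622. The gap between the diets at 28 dpi was smaller on this scale (1.05 to 2.03% against 2.62 to 5.78%) but the intervals did not overlap. Among NK-like and Cd3 T cells only, NK-like cells were 42.4% in sham vehicle (29.6 to 55.9%), 25.0% at 7 dpi (17.8 to 33.4%) and 13.2% at 28 dpi (9.54 to 17.7%). On PLX5622 they were 23.5% (6.81 to 49.9%), 27.3% (10.7 to 50.2%) and 18.7% (12.6 to 26.2%). Relative to T cells, then, the 28 dpi intervals of the diets overlapped, and sham vehicle held the highest proportion of NK-like cells. Cd3 T cells themselves were 1.89%, 1.29% and 2.53% of all cells on vehicle and 2.64%, 3.18% and 12.0% on PLX5622.

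**Figure D2:**
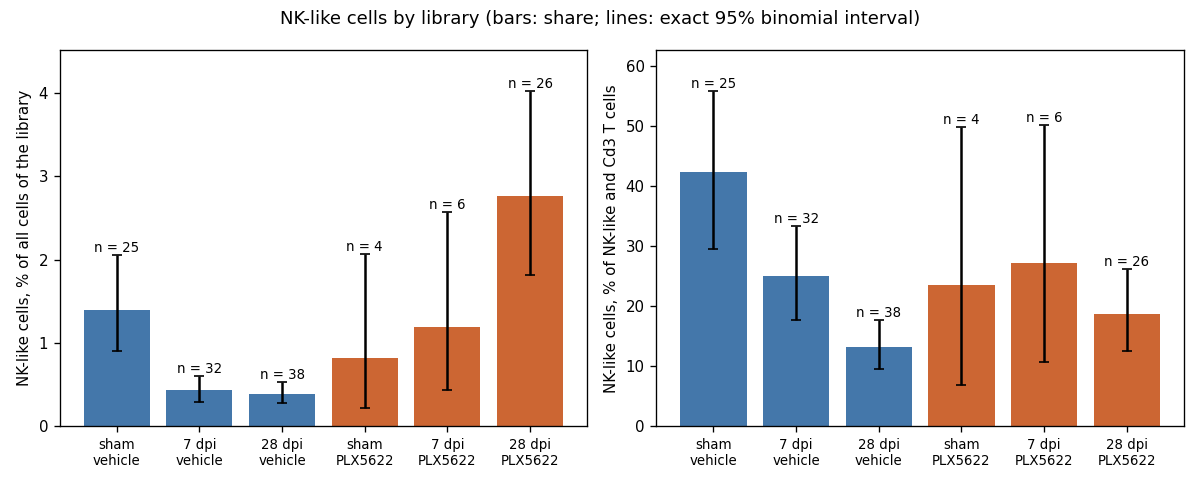
NK-like cells as a percentage of all cells of the library (left) and of NK-like and Cd3 T cells together (right) in the 6 libraries, blue vehicle and orange PLX5622; bars are shares, lines exact 95% binomial intervals and n the number of NK-like cells. The left panel is highest at 28 dpi PLX5622 (2.77%) and the right panel at sham vehicle (42.4%).

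The NK-like cells were next compared with the Cd3 T cells of the same cluster, over all 6 libraries summed (299511 and 1302275 UMIs). This contrast chose the cells, so it is a description with no test. Of 5440 genes with at least 30 UMIs in both together, 404 were at least 2-fold higher in NK-like cells (7.43%) and 327 at least 2-fold lower (6.01%). Counts over lists below are to be read beside these shares. A gene that reaches 30 UMIs mainly through either group tends to be higher there, so such counts describe the genes compared and not all members. The median gene lay at a log2 ratio of 0.18, and with edgeR's TMM factors at -0.05, under which 226 genes were higher and 464 lower. DESeq2's size factors gave 227 and 463, and totals without ribosomal protein genes 236 and 439.

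Killing machinery set the NK-like cells apart. Of 16 cytotoxic granule and death ligand genes with enough UMIs, 9 were at least 2-fold higher and 0 lower, with a median log2 ratio of 1.54. Gzma, the granule protease granzyme A, stood at 6971 CPM in NK-like cells and 13.05 CPM in T cells, a log2 ratio of 9.06 (95% interval 8.38 to 9.84). Gzma was found in 74.8% of NK-like cells and in 1.92% of T cells, whose median depths were 1828 and 1724 UMIs. Gzmb, the protease that starts apoptosis in target cells, differed by 5.84 (5.09 to 6.71), and Prf1, the pore-forming perforin, by 4.99 (3.84 to 6.37). Serpinb9, which inhibits granzyme B and shields the killer cell from its own enzyme, differed by 4.34 (3.73 to 5.00). Fasl, a death ligand shared with cytotoxic T cells, differed by 1.63 (0.97 to 2.29), and Nkg7, a granule membrane protein of both lineages, by 1.65 (1.52 to 1.78). Transcripts of both granzymes and of perforin were rare in the T cells, while Nkg7 and Fasl were found in both cell groups. Gzma, Gzmb, Prf1, Serpinb9 and Nkg7 were higher in NK-like than in T cells within 6 of 6 libraries, Gzma by 7.11 to 11.1 on the log2 scale. Nkg7 ran from 0.39 in 28 dpi vehicle, inside 2-fold, to 2.70 in sham PLX5622.

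Of 21 NK receptors, 15 were at least 2-fold higher and 1 lower, with a median log2 ratio of 3.96. Some of the 15 reached the UMI minimum mainly through the NK-like cells, so the filter partly decided this count and median. Klrk1 (NKG2D), which recognises stress-induced ligands, stood at 724.5 CPM against 46.1 in T cells. Klrd1 (CD94), the partner chain of the NKG2 receptors, differed by 2.69 (2.45 to 2.94), and Klrc1 (NKG2A), its inhibitory partner, by 3.71 (3.24 to 4.21). Klri2, a lectin-like receptor, differed by 7.48 (5.58 to 10.5), and Cd244 (2B4), a receptor for CD48, by 5.16 (3.82 to 6.85). Klrb1f, another lectin-like receptor of the Klrb1 family, differed by 5.93 (4.83 to 7.28).

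The Ly49 receptors encoded by Klra genes bind MHC class I, and each NK cell expresses its own subset of them. Of 10 Klra genes in the table, 35 of the 131 cells held UMIs of none, 39 of 1 and 57 of 2 or more, up to 6. Klra9 was found in 51 cells, Klra18 in 39 and Klra7 in 33. Klrc1 was found in 53 cells, 40 of which also held a Klra UMI, and of the 78 cells without Klrc1, 56 did. The cells with Klrc1 were deeper (median 2415 UMIs against 1303), and Klra genes are near-identical copies whose reads can be split between them, so single Klra values are uncertain.

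Among adaptors and signalling proteins, 6 of 15 were at least 2-fold higher and 1 lower. Fcer1g, the adaptor of CD16 and NKp46, was found in 131 of 131 NK-like cells and 30.5% of T cells, a log2 ratio of 1.87 (1.75 to 1.99). Tyrobp (DAP12), the adaptor of activating Ly49 receptors, differed by 1.28 (1.17 to 1.40). Both adaptors are also high in microglia and macrophages, and their differences depended on the library. Within libraries Tyrobp differed by 0.66 and 0.73 at 7 and 28 dpi on vehicle and by 3.12 to 5.72 in the other 4, and Fcer1g by 0.98 and 1.26 against 4.14 to 6.02. Without the 15 NK-like and 94 T cells rich in myeloid transcripts, Fcer1g differed by 4.68 (4.40 to 4.97) and Tyrobp by 3.82 (3.58 to 4.06). Lat, the adaptor of the T cell receptor, stood at -2.43 (-3.22 to -1.73). All 8 genes of the T cell list were at least 2-fold lower in NK-like cells, with a median of -2.81. Among them Cd4, Cd8a, Cd8b1, Cd5, Cd6 and Themis had 0 UMIs in NK-like cells and passed the UMI minimum through the T cells. Their direction thus follows from the filter and their ratios are bounds, so this count and median are partly set by it.

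Among transcription factors, 6 of 16 were at least 2-fold higher and 3 lower. Eomes and Tbx21 (T-bet), the T-box factors of NK cell maturation, differed by 2.68 (2.09 to 3.28) and 2.25 (1.52 to 2.99). Irf8 differed by 2.28 (1.95 to 2.61) over all cells, by 4.24 (3.63 to 4.91) without cells rich in myeloid transcripts, and by 1.07 to 5.76 within libraries, whereas Lef1, a factor of naive T cells, stood at -1.81 (-2.67 to -1.06). Bcl11b stood at -3.15 (-4.48 to -2.09). Of 9 genes of mature circulating NK cells, 7 were at least 2-fold higher and 0 lower, with a median of 3.96. Some of the 7 reached the UMI minimum mainly through the NK-like cells, so the filter partly decided this count and median. Among them S1pr5, a sphingosine phosphate receptor by which NK cells leave the marrow and lymph nodes, differed by 5.51 (4.05 to 7.45), and Cma1, a protease of mature NK cells, was listed with 38 UMIs in NK-like cells and 0 in T cells, at least 5.78 higher on the log2 scale against a floor of 3 counts. Of 8 genes of immature NK cells, 2 were higher and 5 lower, Emb, an adhesion molecule, at -1.23 (-1.95 to -0.58). Of 8 genes of type 1 innate lymphoid cells, tissue-resident relatives of NK cells, 0 were higher and 3 lower, with Cxcr6 at -2.33 (-3.13 to -1.63). Cxcr6 was higher in T cells within 6 of 6 libraries. A ratio to T cells cannot tell NK cells from type 1 innate lymphoid cells. Over 11 cell cycle genes, NK-like cells held 211 UMIs in 86 cells, or 704.5 CPM (612.6 to 806.2), and T cells 774.0 CPM (727.0 to 823.3), with overlapping intervals. Of these genes Mki67, a mark of dividing cells, gave 1 UMI in the 131 cells.

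Of 10 cytokine receptors, 3 were at least 2-fold higher and 2 lower. Il2rb, the chain shared by the interleukin 2 and 15 receptors, differed by 1.47 (1.07 to 1.87) and Il18rap, an interleukin 18 receptor chain, by 3.24 (2.58 to 3.93). Il7r, which naive and memory T cells need for survival, was the gene furthest on the T cell side among those with at least 5 UMIs in each group, at 43.4 CPM against 530.6 and a log2 ratio of -3.61 (-4.53 to -2.83). Of 9 cytokines and chemokines, 5 were higher and 2 lower. Ccl5, a chemoattractant for lymphocytes and monocytes, differed by 1.98 (1.92 to 2.05), Xcl1, which draws cross-presenting dendritic cells, by 1.96 (1.66 to 2.27), and Ifng by 1.56 (0.73 to 2.36). Within libraries Xcl1 ran from 0.49 in sham vehicle to 4.23 at 7 dpi vehicle. Ifng was lower in NK-like than in T cells in sham vehicle (-0.70) and higher in the other 5 libraries, up to 4.96 at 7 dpi vehicle. These Ifng values rest on few UMIs. NK-like cells held 5 in sham vehicle and 3, 3 and 1 in sham, 7 dpi and 28 dpi PLX5622, so the order across libraries is uncertain. Ccr2, the receptor for Ccl2, differed by 2.43 (2.05 to 2.81). S1pr1 and Ccr7, receptors for recirculation through lymph nodes, stood at -1.83 (-2.80 to -0.99) and -2.63 (-4.10 to -1.48), although Ccr7 stood at 0.54 within 7 dpi vehicle. Of 11 interferon-stimulated genes, 0 were higher and 5 at least 2-fold lower, Ifi27l2a furthest at -3.21 (-3.82 to -2.66) over all cells and at -6.84 (-9.89 to -4.98) without cells rich in myeloid transcripts, with 2 UMIs against 861. Of the 12 microglia and macrophage genes, 0 were past 2-fold in either direction over all cells (median -0.50). This rested on the cells and libraries summed: 8 were at least 2-fold lower in NK-like cells with 2 or more UMIs over the 3 receptors, and 5 without the 7 dpi vehicle library. Within libraries Apoe ran from -2.63 in sham vehicle to 1.17 in sham PLX5622.

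**Figure D3:**
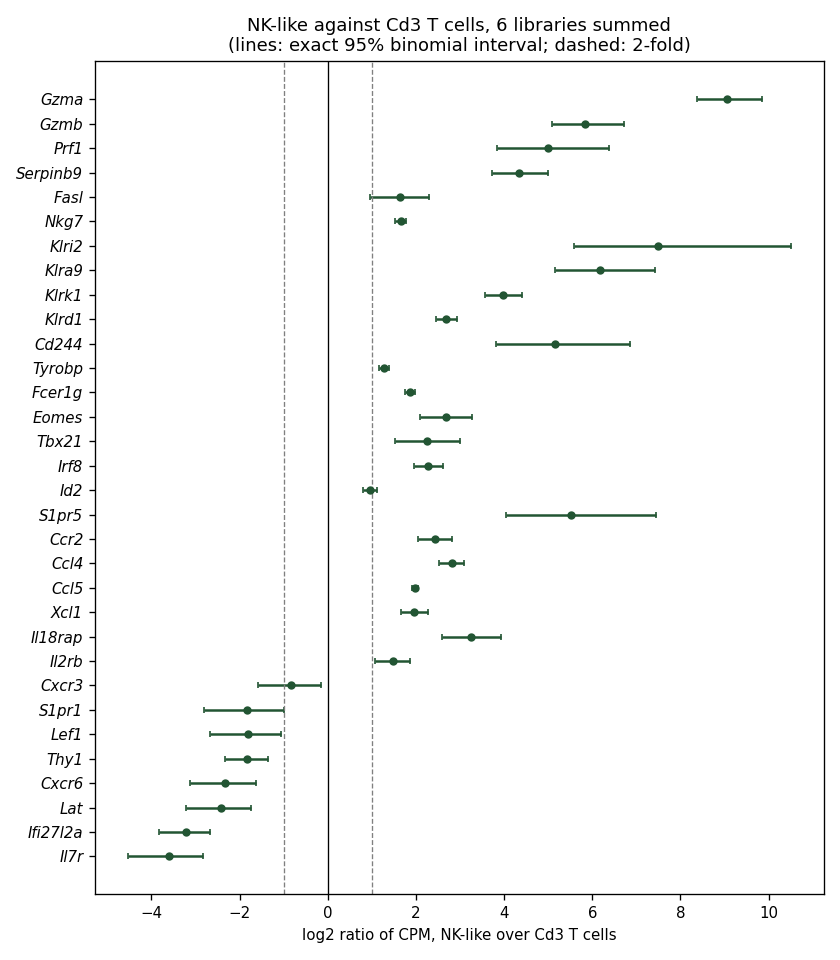
Log2 ratio of CPM in NK-like cells over Cd3 T cells for 32 genes of the lists, from UMIs summed over the 6 libraries; points are ratios, lines exact 95% binomial intervals, the solid line marks equality and the dashed lines 2-fold. Gzma lies furthest to the right at 9.06 and Il7r furthest to the left at -3.61.

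The cells also differed from one another. Gzma ranged from 0 to 104 UMIs per cell, with a median of 8 and 33 of 131 cells at 0, and the most Gzma-rich cell held 32.9 Gzma UMIs per 1000 UMIs. Ccl5 ranged from 0 to 148 UMIs, with a median of 16 and 9 cells at 0, and Nkg7 from 0 to 44 with a median of 3 and 8 cells at 0. Fcer1g had no cell at 0 and spread from 0.423 to 10.4 UMIs per 1000. Gzmb and Xcl1 were detected in a minority: 78 cells held no Gzmb UMI and 75 no Xcl1 UMI, while single cells reached 28 and 17 UMIs. Near-universal transcripts (Fcer1g, Nkg7, Ccl5) thus stood beside ones detected in a minority of cells (Ccl4, Gzmb, Xcl1). At these depths a cell at 0 may still express the gene. Of 17 trafficking and adhesion genes, 8 were at least 2-fold higher in NK-like than in T cells and 3 lower. Of 13 immediate early and activation genes, 1 was higher and 2 lower. Over all genes compared, 7.43% were higher and 6.01% lower, so 1 higher gene of 13 is near that share. Itgb2, a chain of the leukocyte integrins, differed by 1.09 (0.79 to 1.38).

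The conditions were then set side by side within the NK-like cells. Ratios were formed only for libraries with at least 10 NK-like cells each, so the sham and 7 dpi PLX5622 libraries, with 4 and 6 cells, are given as values. In bulk sums of this kind, fewer expressing cells and less RNA per cell cannot be told apart, so shares of cells are given where they bear on it. A gene that reaches 30 UMIs mainly through 1 library tends to differ from the other, so counts over lists describe the genes compared and not all members. The median NK-like cell held 2881 UMIs in sham vehicle, 1158 at 7 dpi and 1073 at 28 dpi on vehicle, and 3888, 3080 and 2386 on PLX5622.

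Several granule genes, Gzma, Gzmb and Nkg7 among them, were lower in the injured vehicle libraries than in sham vehicle over all cells, but much of the difference at 7 dpi rested on the few cells rich in myeloid transcripts. Gzma stood at 10174 CPM in sham vehicle, 4621 at 7 dpi and 3384 at 28 dpi on vehicle, and at 8178, 10367 and 7096 CPM in the sham, 7 dpi and 28 dpi libraries on PLX5622. The injured vehicle libraries were the lowest of the 6, and their intervals (4100 to 5190 and 2931 to 3887 CPM) overlapped none of the other 4. Set against sham vehicle, Gzma had a log2 ratio of -1.14 (-1.34 to -0.94) in the 7 dpi library, and in the 28 dpi library it was -1.59 (-1.82 to -1.36). Without the 990 myeloid-high genes in the totals, Gzma stood at 10455, 5570, 3994, 8394, 10650 and 7275 CPM in the same order. Without the 15 cells Gzma stood at 7959 CPM (6974 to 9045) at 7 dpi and 5226 CPM (4457 to 6090) at 28 dpi, and the ratios to sham vehicle were -0.35 (-0.57 to -0.14) and -0.96 (-1.21 to -0.72), both inside 2-fold. With each cell weighted alike they were -0.69 and -1.34, and without Scrublet-called cells -0.83 and -1.17. The direction thus held in each of these settings, the 2-fold call at 7 dpi in none, and the 7 dpi interval without the 15 cells overlapped those of all 3 PLX5622 libraries. Gzma was detected in 84.0%, 71.9% and 60.5% of NK-like cells in sham, 7 dpi and 28 dpi vehicle, and in 75.0%, 68.2% and 40.9% once each cell was thinned to 1000 UMIs. In the sham PLX5622 library 52.1% of the Gzma UMIs came from 1 of its 4 cells.

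Of 636 genes compared between 7 dpi and sham vehicle, 59 were at least 2-fold higher at 7 dpi (9.28%) and 114 lower (17.9%), with a median log2 ratio of -0.31. With DESeq2's size factors 68 were higher and 65 lower, and with TMM factors 63 and 76. Without the cells rich in myeloid transcripts 8 of 476 were higher and 45 lower. Of 10 granule and death ligand genes, 1 was higher and 7 lower (median -1.17), and without those cells 0 of 8 were higher and 1 lower (median -0.40). Gzmb stood at 903.5, 356.7 and 338.4 CPM in sham, 7 dpi and 28 dpi vehicle and at 230.4, 1849 and 682.9 CPM on PLX5622. Its ratio of 7 dpi to sham vehicle was -1.34 over all cells and -0.28 (-1.04 to 0.43) without the cells rich in myeloid transcripts. Its highest value was at 7 dpi PLX5622, where 52.6% of the UMIs came from 1 cell. Nkg7 stood at 4369, 1670 and 1438 CPM on vehicle and at 3801, 2433 and 2632 CPM on PLX5622. The ratio of Nkg7 at 7 dpi to sham vehicle was -1.39 (-1.72 to -1.07) in NK-like cells and -0.46 (-0.80 to -0.11) in the T cells of the same libraries. With cells at 2% myeloid UMIs or more left out on both sides, it was -0.44 (-0.78 to -0.11) in NK-like cells and 0.40 (0.02 to 0.78) in T cells, so the T cell value changed sign. The 1 higher gene of the list was Lamp1, a lysosomal membrane protein that microglia also make, at 1.74 (0.93 to 2.62), and it was higher by a like ratio in the T cells, 1.86 (1.36 to 2.40).

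Over all cells, most of the NK receptors compared were lower at 7 dpi as well. Of 9 receptors, 1 was at least 2-fold higher and 6 lower at 7 dpi (median -1.44), and without the cells rich in myeloid transcripts 0 of 8 were higher and 2 lower (median -0.66). Klrd1 stood at 1498, 551.3 and 795.3 CPM in sham, 7 dpi and 28 dpi vehicle and at 1613, 973.4 and 1582 CPM on PLX5622. Its ratio at 7 dpi was -1.44 over all cells and -0.61 (-1.25 to -0.01) without those cells. Klrk1 stood at 1225, 389.2 and 558.4 CPM on vehicle and at 1152, 730.0 and 433.1 CPM on PLX5622, so its 28 dpi values overlapped between the diets. Klrc1 was the lowest of the genes named for this comparison, with 841.6 CPM in sham vehicle and 145.9 CPM at 7 dpi (log2 ratio -2.53, interval -3.72 to -1.52). Klrc1 and Klrk1 stayed past 2-fold without the cells rich in myeloid transcripts, at -1.64 (-2.90 to -0.58) and -1.01 (-1.82 to -0.27). The 1 higher gene was Fcgr3 (CD16), an Fc receptor that macrophages share, at 1.91 (0.70 to 3.28). Klf2, a transcription factor of quiescent and circulating lymphocytes, stood at 1163, 308.1 and 304.6 CPM on vehicle and at 1267, 1119 and 433.1 CPM on PLX5622. Klf2 was lower at 7 dpi than in sham vehicle by -1.92 (-2.71 to -1.19) in NK-like cells and by -1.24 (-1.62 to -0.86) in T cells. Without cells rich in myeloid transcripts these values were -1.40 (-2.36 to -0.56) and -0.63 (-1.07 to -0.21).

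The chemokine genes Xcl1, Ccl4 and Ccl5 differed in their order across libraries. Xcl1 stood at 668.4, 470.2 and 626.1 CPM on vehicle and at 748.7, 389.4 and 549.7 CPM on PLX5622, with overlapping intervals in all 6 libraries. Ccl4, a chemokine for macrophages and T cells, stood at 705.5, 1719 and 1168 CPM on vehicle and at 1325, 194.7 and 166.6 CPM on PLX5622. The Ccl4 UMIs came from a minority of cells: 13 of 32 cells at 7 dpi held 106 UMIs, and 1 of them held 40. Ccl4 is among the genes high in microglia and macrophages. Its ratio of 7 dpi to sham vehicle was 1.28 over all cells and 1.83 (1.31 to 2.35) without the cells rich in their transcripts, where 74 UMIs were left, 40 of them in 1 cell. The part of the remaining myeloid transcripts was not tested. Ccl5 stood at 13107, 8075 and 6819 CPM on vehicle and at 18430, 14990 and 13426 CPM on PLX5622, so every PLX5622 library and sham vehicle lay above both injured vehicle libraries. Without the cells rich in myeloid transcripts Ccl5 at 7 dpi stood at 14056 CPM, a ratio of 0.10 (-0.07 to 0.27) over sham vehicle, so that order rested on those cells at 7 dpi.

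The highest of the named genes at 7 dpi over sham vehicle were genes of microglia and macrophages. Over the 12 genes of the microglia and macrophage list there were 31 UMIs in sham vehicle and 4272 at 7 dpi. The members passed the UMI minimum through the 7 dpi library, so their direction follows from the filter and no count is given. Apoe led with a log2 ratio of 8.01 (7.33 to 8.79), ahead of the lysosomal protease Ctsb at 4.32 (3.30 to 5.56), Psap, the precursor of activators of lysosomal enzymes, at 3.64 (2.70 to 4.74), and the protease inhibitor Cst3 at 3.62 (3.12 to 4.17). In the T cells Apoe was higher by 5.18 (4.98 to 5.39). Without the cells rich in these transcripts Apoe and Cst3 were still higher in NK-like cells, by 4.36 (3.63 to 5.19) and 2.94 (2.37 to 3.54), while Ctsb, Psap, Lamp1 and Fcgr3 had too few UMIs to be compared. Without the myeloid-high genes, 24 genes were higher and 64 lower of 577.

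**Figure D4:**
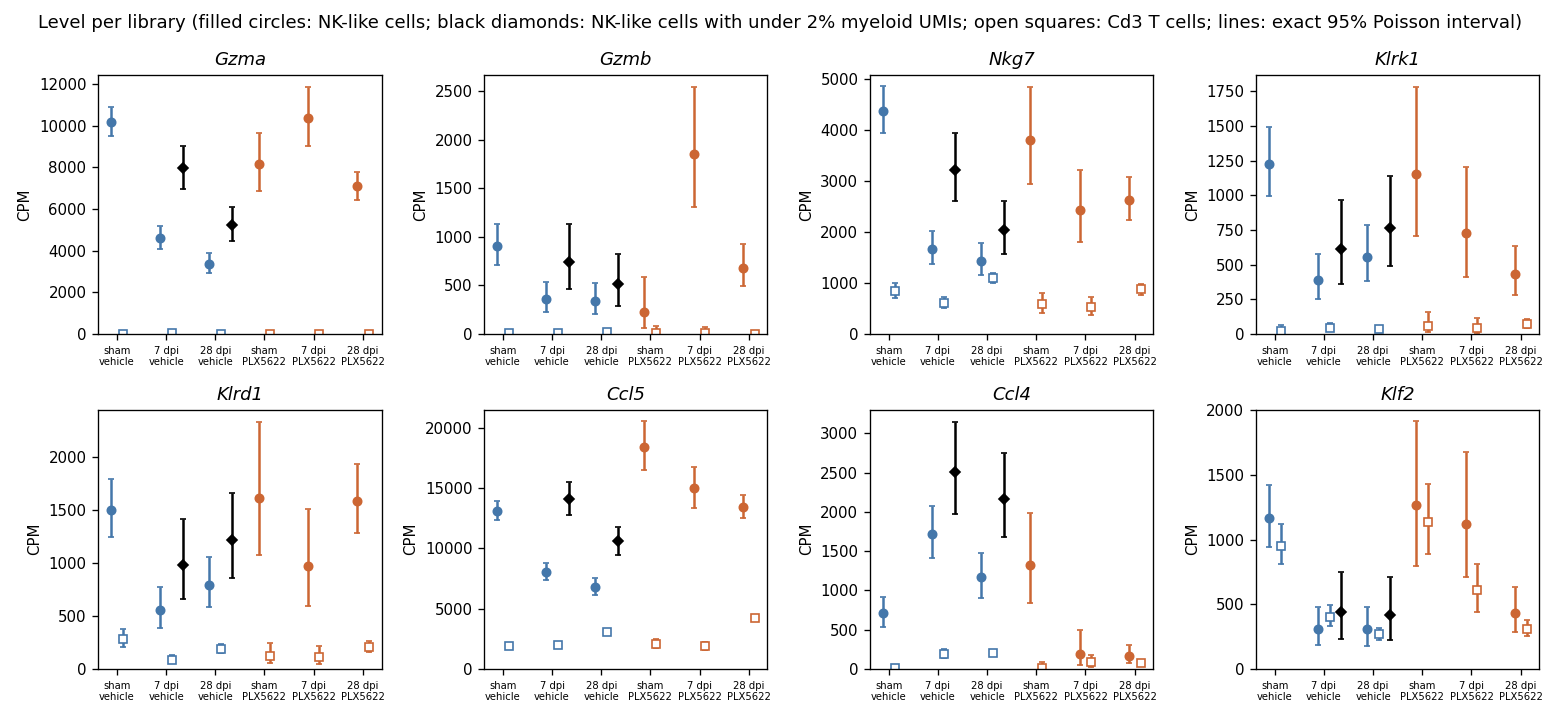
Level in CPM of 8 genes in NK-like cells (filled circles), in NK-like cells with under 2% of UMIs in the microglia and macrophage list (black diamonds, injured vehicle libraries) and in Cd3 T cells (open squares) of each library, blue vehicle and orange PLX5622; lines are exact 95% Poisson intervals of the UMI sums. With all cells, Gzma, Nkg7, Klrd1 and Ccl5 are lower in the injured vehicle libraries than in sham vehicle, whereas the diamonds of these 4 genes lie nearer to sham vehicle, and at 7 dpi that of Ccl5 (14056 CPM) lies above it.

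At 28 dpi on vehicle, 45 of 631 genes were at least 2-fold higher than in sham vehicle (7.13%) and 102 lower (16.2%), and with TMM factors 48 and 70. Of 10 granule genes 2 were higher and 5 lower, and of 8 NK receptors 0 were higher and 5 lower (median -1.27). Without the 10 cells rich in myeloid transcripts, 16 of 501 genes were higher and 59 lower, with 1 of 9 granule genes higher and 2 lower and 2 of 8 receptors lower (median -0.72). Nkg7 stood at -1.60 (-1.96 to -1.26) and Klf2 at -1.93 (-2.75 to -1.20), while the Ly49 gene Klra18 was lowest among the named genes at -2.29 (-3.48 to -1.27). Without those cells the 3 genes stood at -1.10 (-1.51 to -0.71), -1.49 (-2.45 to -0.65) and -1.37 (-2.57 to -0.35), still past 2-fold. Besides Lamp1, the higher granule gene was Gzmc, a granzyme of activated killer cells, with 36 UMIs in 4 of 38 cells and 0 in the other 5 libraries, 20 of them in 1 cell. The microglia and macrophage list held 3215 UMIs at 28 dpi, again against 31 in sham vehicle. Sham vehicle is the control in both of these comparisons, so they are not independent.

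Between 28 and 7 dpi on vehicle, 14 of 470 genes were at least 2-fold higher at 28 dpi (2.98%) and 21 lower (4.47%), smaller shares than in either comparison with sham. DESeq2's size factors gave 13 and 30, and TMM factors 11 and 30. Gzma differed by -0.45 (-0.72 to -0.18). Klrd1 and Klrk1 differed by 0.53 (-0.14 to 1.21) and 0.52 (-0.28 to 1.34), with intervals that include 0. Without the cells rich in myeloid transcripts these 3 values were -0.61 (-0.90 to -0.31), 0.30 (-0.43 to 1.05) and 0.33 (-0.62 to 1.29). The genes furthest apart were mostly myeloid: Cst7, an inhibitor of cathepsins that NK cells and activated microglia both make, at 2.23 (1.10 to 3.55), Spp1 at 2.04 (1.66 to 2.44) and Ms4a6c at -2.52 (-4.06 to -1.26). Without the cells rich in myeloid transcripts 3 of 230 genes were higher and 8 lower, and Spp1 turned to -0.67 (-1.68 to 0.30), with 16 UMIs at 28 dpi and 24 at 7 dpi, while Cst7 and Ms4a6c had too few UMIs to be compared.

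At 28 dpi, PLX5622 and vehicle differed in NK-like cells for 33 of 457 genes at least 2-fold higher on PLX5622 (7.22%) and 49 lower (10.7%). With totals without ribosomal protein genes the split was 58 and 45. The microglia and macrophage list held 58 UMIs on PLX5622 and 3215 on vehicle, so its members passed the minimum through the vehicle library, with Apoe at -5.83 (-6.32 to -5.38). Gzma was higher on PLX5622 by 1.07 (0.82 to 1.32), Gzmb by 1.01 (0.21 to 1.86), Nkg7 by 0.87 (0.48 to 1.27), Klrd1 by 0.99 (0.47 to 1.53) and Ccl5 by 0.98 (0.80 to 1.15). These values rested in good part on the 10 vehicle cells rich in myeloid transcripts. Without them Gzma was higher by 0.44 (0.18 to 0.71), Gzmb by 0.42 (-0.44 to 1.35), Nkg7 by 0.37 (-0.06 to 0.81), Klrd1 by 0.39 (-0.17 to 0.97) and Ccl5 by 0.34 (0.16 to 0.53), none of them past 2-fold, and 14 of 345 genes were higher and 16 lower. Gzma was higher by 0.72 with each cell weighted alike. Over the 9 granule genes, all cells kept, 3 were higher and 2 lower, with a median of 0.02, against 0.21 over all genes. The higher genes were Gzma, Gzmb and Serpinb9, the inhibitor of granzyme B, at 1.23 (0.26 to 2.29), none of which was past 2-fold without the 10 cells, and the lower ones Lamp1 at -3.57 (-5.91 to -1.90) and Gzmc, at 0 UMIs on PLX5622. Without the myeloid-high genes in the totals, levels on vehicle and PLX5622 at 28 dpi were 3994 and 7275 CPM for Gzma, 1697 and 2698 CPM for Nkg7 and 8048 and 13763 CPM for Ccl5. Klra18 was the highest gene at 2.67 (1.64 to 3.86) and at 1.75 (0.73 to 2.95) without the 10 cells, followed by Rpl34 at 2.01 (1.08 to 3.05), Fyn at 1.98 (0.65 to 3.56) and Klra9 at 1.78 (0.74 to 2.96). Rpl34 stood at 1.68 and Klra9 at 0.87 (-0.17 to 2.05) without the 10 cells, while Fyn had too few UMIs to be compared without them. Rpl34 was also higher on PLX5622 in T cells, by 1.67 (1.36 to 1.99). Klra18 was found in 15 of 26 cells on PLX5622 and 4 of 38 on vehicle at 28 dpi, and gave 0 UMIs in the 10 cells of the sham and 7 dpi PLX5622 libraries. Xcl1 differed by -0.19 (-0.91 to 0.53) and Klrk1 by -0.37 (-1.17 to 0.42), and without the 10 cells by -0.65 (-1.42 to 0.14) and -0.82 (-1.68 to 0.04). Ccl4 was lower on PLX5622, at -2.81 (-3.93 to -1.84), and in T cells at -1.51 (-2.27 to -0.82). In NK-like cells this rested on a minority of cells. On vehicle there were 69 Ccl4 UMIs, 21 of them in 1 cell, and 29 of 38 cells held none. On PLX5622 there were 10 UMIs, and 20 of 26 cells held none. Without the 10 cells Ccl4 stood at -3.70 (-4.82 to -2.74) in NK-like cells and Apoe at -2.68 (-3.23 to -2.16).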

How the data were processed

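Single cells of unperfused spinal cord were captured with 10x Genomics 3' reagents. The submitters' processing notes name Cell Ranger, Seurat and the GRCm38 (mm10) build. The deposited table holds UMI counts of 16003 genes in 21016 cells, with the authors' cluster number for each cell in the metadata. Cells held 199 to 8982 genes, so no upper limit on genes is visible in the deposited counts. Bulk samples of the series were not used here.

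Libraries held 492 to 9846 cells and 2606149 to 35694246 UMIs. UMIs were summed over NK-like cells per library and divided by the summed total (CPM), with exact Poisson intervals. Ratios of sums have exact conditional binomial intervals and shares Clopper-Pearson intervals, all at 95%. A gene was compared with at least 30 UMIs in both sums together and called at 2-fold. A side at 0 was set to 3 counts, giving a bound. Doublets were kept. Scrublet (scanpy 1.11.5) called 11 of the 131 cells, 4 in the 7 dpi and 7 in the 28 dpi vehicle library and 0 elsewhere. Per library the cells with the highest scores were called, up to a rate set at 0.8% per 1000 cells. Work was done in Python 3.11.15 (scipy 1.17.1) and R 4.3.3, with edgeR 4.0.16 and DESeq2 1.42.0 for scaling factors only. The scripts were tested on simulated data.

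The cells and 23 gene lists (232 of 257 genes in the table) were chosen with earlier results of these data known. Named genes are those of the lists, of the rule and of the label, and the 5 highest and 5 lowest of each comparison with at least 5 UMIs per group; some of these genes are not reported here. Of all cells, 88 share a barcode with a cell of another library, 1 of them NK-like. Alternatives tried were scaling, thinning to 1000 UMIs, gene and UMI minimums, Scrublet calls, the rule's genes, myeloid transcripts, cells rich in them and leaving out each library.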

Additional observations from a re-analysis of the deposited data

Results flagged for a closer look

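The NK-like share of all cells moved in opposite directions between sham and 28 dpi on the 2 diets. The difference, 28 dpi minus sham, was -1.01 percentage points on vehicle and 1.95 percentage points on PLX5622. With 1 library per condition this difference was not tested. The total number of cells differed between the libraries, and its part was not tested. On PLX5622 the sham and 28 dpi intervals overlapped (0.222 to 2.07% and 1.82 to 4.03%). The opposite directions also depended on the denominator. Among NK-like and Cd3 T cells the share was lower at 28 dpi than in sham on both diets, 13.2% against 42.4% on vehicle and 18.7% against 23.5% on PLX5622. Outside the microglia and macrophage clusters the directions were opposite again.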

How the results depend on the processing

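No paired analysis was possible because each condition has 1 library. Of the single gene values, 1566 stayed within the limits set under the alternatives run, 231 moved and 1 called at 2-fold reversed: Spp1 at 28 against 7 dpi vehicle, at -0.67 without cells of 2% or more myeloid UMIs. Values inside 2-fold changed sign in 52 cases, over 23 pairs of gene and comparison, and 10 of the 52 were in that setting. As a share of cluster 5, NK-like cells were 37.3%, 20.9% and 10.9% in sham, 7 dpi and 28 dpi vehicle and 19.0%, 26.1% and 17.2% on PLX5622; outside microglia and macrophage clusters the vehicle shares were 2.67%, 1.42% and 1.49%; thinned to 1000 UMIs they were 0.273% at 7 dpi and 0.244% at 28 dpi. The 731 genes past 2-fold between NK-like and T cells became 349 after thinning, 379 with cells of fewer than 3 microglia and macrophage UMIs, 1346 at 15 UMIs, 305 at 60 UMIs, and 594 to 772 on leaving out 1 library. For 7 dpi against sham vehicle, 173 became 29 thinned, 103 without Scrublet-called cells, 113 with 2 UMIs over the receptors, 446 at 15 UMIs, 69 at 60 UMIs, 88 without myeloid-high genes and 53 without cells of 2% or more myeloid UMIs. For 28 dpi against sham vehicle, 147 became 39, 90 (Scrublet), 411, 56, 74 and 75. For 28 against 7 dpi vehicle, 35 became 10, 145, 9, 23 and 11. For 28 dpi PLX5622 against vehicle, 82 became 27, 50 (Scrublet), 262, 38, 40 and 30. Thinning leaves out cells below 1000 UMIs, and thinning and the UMI minimums change how many genes are compared. For the other settings the cause was not tested. Leaving out myeloid-high genes, leaving out those cells and adding T cell genes to the rule were chosen after seeing the data. Cells with under 3 myeloid UMIs were 1 and 0 at 7 and 28 dpi on vehicle, so that setting was not run between libraries, nor were ratios for the PLX5622 libraries of 4 and 6 cells. T cell receptor constant genes were not used here. Depth limits absence: a gene at 0 in sham PLX5622 may stand at up to 212.5 CPM, as for Gzmc.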
